A study of Mus musculus with 8 samples.

Results

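Imprinted genes in cells sorted as leukemic stem cells (LSCs) from mice with chronic myeloid leukemia (CML) were examined through 8 genes: Igf2r, Grb10, Plagl1, Ndn, Peg3, Meg3, Rian and Impact. The genes were given as a list of imprinted genes known from quiescent stem cells, chosen with earlier results of these data known. All 8 were found among the 15576 genes of the table, and 7 of the 8 passed the filter on low counts and were tested. 4 libraries from untreated CML mice (CML) and 4 from CML mice given the tyrosine kinase inhibitor imatinib (CML-TKI) were compared by bulk RNA-seq, to ask how the inhibitor-persistent cells differ from untreated leukemic cells. All animals carried both transgenes of the BCR-ABL×SCL-tTA model on a C57BL/6 background. Its SCL-tTA transgene turns BCR-ABL on in stem cells after tetracycline withdrawal. The labels give imatinib by gavage at 400 mg/kg on alternate days for 4 weeks, whereas the study's methods name a lower dose as well and its description of this RNA-seq comparison gives the lower dose alone. Which dose these libraries had was not settled. Animal age, and whether a library came from 1 mouse or from pooled mice, were not given in the sources used here, so the p-values measure the spread between these libraries.

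Imprinted genes are expressed mainly or only from the allele inherited from 1 parent, because DNA methylation set in the germ line marks one copy. Igf2r, Meg3, Rian and, outside neurons, Grb10 are expressed from the maternal copy, and Plagl1, Ndn, Peg3 and Impact from the paternal copy. Several of them restrain growth, and imprinted genes of this network are known to be expressed in long-term hematopoietic stem cells, where loss of the maternal Meg3 region or of Ndn alters quiescence. The counts sum both alleles, so imprinting itself was not measured.

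Sequence upstream of the genes, from RefSeq on GRCm38.p6, is shown for 4 members: Grb10 and Ndn because they were the members that passed the test, and Peg3 and Meg3 because both hold the letters TGACGTCA, the cyclic AMP response element, within 250 bases before the gene's start. Each sequence runs 5′ to 3′ on the gene's strand and ends at the base before the start of 1 annotated transcript. For Peg3 and Grb10, RefSeq's gene span reaches further than that start, by 43 bases for Peg3 and to position 12037428 for Grb10. Capitals mark every CpG in the first pair and the element in the second pair. The windows lie at chr11:12037421-12037670 on the minus strand for Grb10, chr7:62348027-62348276 on the plus strand for Ndn, chr7:6730420-6730669 on the minus strand for Peg3 and chr12:109540746-109540995 on the plus strand for Meg3.
Grb10: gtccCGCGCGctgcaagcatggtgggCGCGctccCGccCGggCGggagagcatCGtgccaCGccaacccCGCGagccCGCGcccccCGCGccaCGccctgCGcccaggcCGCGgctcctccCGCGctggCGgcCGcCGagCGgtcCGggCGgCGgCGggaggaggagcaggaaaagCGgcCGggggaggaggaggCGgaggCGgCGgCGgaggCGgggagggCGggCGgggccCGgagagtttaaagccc
Ndn: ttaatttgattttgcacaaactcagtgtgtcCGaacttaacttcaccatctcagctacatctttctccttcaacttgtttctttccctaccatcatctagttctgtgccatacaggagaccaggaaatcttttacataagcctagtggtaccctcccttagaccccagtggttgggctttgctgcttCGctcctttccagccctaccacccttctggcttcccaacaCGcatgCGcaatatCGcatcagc
Peg3: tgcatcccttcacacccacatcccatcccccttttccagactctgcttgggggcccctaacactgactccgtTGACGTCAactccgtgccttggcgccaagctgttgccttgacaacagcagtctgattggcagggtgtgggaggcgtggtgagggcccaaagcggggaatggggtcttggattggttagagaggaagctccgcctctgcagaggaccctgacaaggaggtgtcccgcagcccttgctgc
Meg3: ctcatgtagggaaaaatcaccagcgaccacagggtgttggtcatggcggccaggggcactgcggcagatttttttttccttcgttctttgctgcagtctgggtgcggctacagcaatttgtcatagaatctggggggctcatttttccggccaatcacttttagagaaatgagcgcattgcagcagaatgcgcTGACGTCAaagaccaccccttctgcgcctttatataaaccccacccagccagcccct

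The Grb10 window held 40 CpGs, more than 98.7% of the 32841 mouse promoter windows of the same length. The Ndn window held 5 CpGs, against a median of 6 and an interquartile range of 2 to 16 over those windows. The first windows of the members that passed the test thus differed in CpG content, but a further Grb10 window held 8 CpGs. Which start was used was not measured here. The other first windows held 27 CpGs for Igf2r, 19 for Plagl1, 10 for Meg3, 8 for Peg3 and 0 for Rian, and a further window of Meg3 held 0. Windows were given for 7 of the 8 members, 9 windows in all. The element TGACGTCA, which reads the same on both strands, was in 2 of these windows and in 1.55% of all windows. In Peg3 it began 178 bases before the start and in Meg3 57 bases before it. 3 other motifs were searched on both strands. TGCCGC, the core bound by ZFP57, was in the Plagl1 and Meg3 windows and in 8.68% of all windows. GGGGCCCC, bound by PLAGL1, was in the Peg3 window and in 0.889% of all windows. GCCATNTT, bound by YY1, was in no member's window and in 3.91% of all windows. None of the matches overlapped another, and a match describes letters only.

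The libraries differed in ways that bear on low genes. Totals were 4939644 to 8620101 counts in CML and 1041552 to 5104268 in CML-TKI, and 3 counts, taken as the floor, corresponded to 0.409 to 0.580 CPM in CML and 0.570 to 3.29 CPM in CML-TKI, the last in CML-TKI 3. CPM are counts scaled to a common library size with TMM factors, and floors cover counting error only. The fourth CML library is called CML 5 after its column, whose number no label carries. CML 1, 2 and 3 resembled each other far more than CML 5, with a chi-square per degree of freedom of 3.90 to 5.93 among them against 93.7 to 96.8 with CML 5. The chi-square treats reads as independent molecules, which PCR copies are not, so it does not show that CML 1, 2 and 3 are separate samples. They were counted as 3 because the labels list them as separate, and with their counts summed to 1 library 0 of the 8 genes passed. The sample labels give a CD150-negative CD48-positive gate for all libraries, whereas the study defines LSCs as CD48-negative and CD150-positive. Slamf1, which encodes CD150, fell by 3.42 on the log2 scale (adjusted p = 0.00797, edgeR) and Cd48 rose by 4.35 (adjusted p = 8.7e-04). Kit, a marker of the gate, fell by 1.92 (adjusted p = 8.7e-04, edgeR) and was at 194.3 to 290.4 CPM in CML-TKI. Markers of hematopoietic stem cells (HSCs) summed to 840.3 to 1174 CPM in CML and 28.2 to 340.6 CPM in CML-TKI, granulocyte markers to 153.4 to 258.9 and 1478 to 8545 CPM, and monocyte markers to 232.0 to 305.5 and 1372 to 6976 CPM. Megakaryocyte markers summed to 1189 to 1407 CPM in CML and 48.7 to 566.9 CPM in CML-TKI. Of 5 tested, 4 were lower and 1 higher, with Itga2b and Gp9 called lower and 3 not past the threshold. Endothelial markers summed to 263.7 to 587.0 CPM in CML and 1.86 to 129.3 CPM in CML-TKI. All 6 were lower, with Cdh5 (-6.43) and Tie1 (-3.60) called and 4 not past. Of all genes tested, 3.93% were called lower. Of 9 HSC markers, 5 were at 0 counts in CML-TKI 2, 2 in CML-TKI 3, 4 in CML-TKI 4 and 0 in CML-TKI 1. The stem cell label of the CML-TKI libraries thus went against several of its markers, and the groups are called CML and CML-TKI libraries. In CML-TKI 1, 489 of the 15576 genes had at least 10 counts and at least 10 times the CPM of every other library, and in CML-TKI 3 this held for 124 genes. CML-TKI 3 also held 51 counts of the Y-linked gene Ddx3y, which had 0 in the other 7 libraries.

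Between the CML-TKI and CML libraries, 2 of the 7 members tested fell, Grb10 and Ndn, and none rose. Over all 11937 genes tested, 10.2% passed an adjusted p of 0.05 in edgeR (quasi-likelihood test, p adjusted by Benjamini and Hochberg's method), 3.93% as lower and 6.29% as higher. Grb10 and Ndn were also the 2 members of 7 whose CML-TKI libraries all lay below every CML library, which held for 13.1% of all genes tested. The median log2 fold change was -1.13 over the 7 members and -0.00026 over all genes tested. The member median rested on single libraries, at -2.07 without CML-TKI 3, -0.72 without CML-TKI 2 and -0.69 without CML-TKI 4, and it was -2.76 with limma-voom. Peg3 was left out of the test by the filter on low counts, since most libraries held few or none, and is given by its counts. Neither call held in every fit: without any 1 of the 4 CML libraries both members lost the call, with adjusted p-values of 0.0773 to 0.105 for Grb10 and 0.0514 to 0.0586 for Ndn. The plot of CPM by library shows all 8 members.

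**Figure D1:**
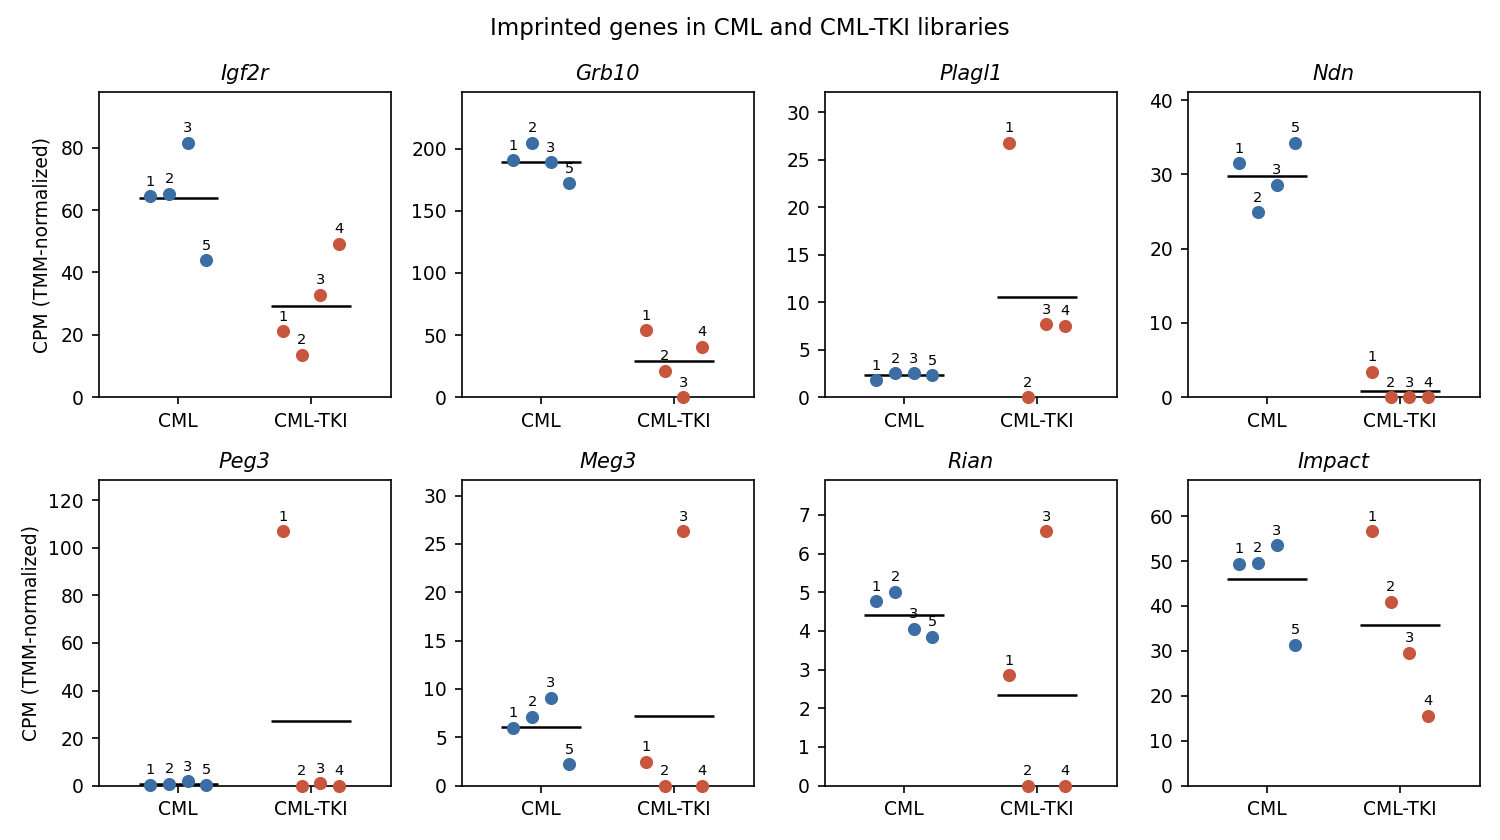
CPM (TMM-normalized, linear axes from 0) of the 8 imprinted genes in each library, with the library number above each point and a line at the group mean (n = 4 per group). Grb10 and Ndn do not overlap between groups, and the CML-TKI mean of Peg3 rests on CML-TKI 1, at 106.9 CPM.

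Grb10 encodes an adaptor protein that binds activated insulin and IGF receptors and dampens their signal (gene ID 14783, chr11:11930499-12037428, minus strand). It had 190.9, 204.8, 189.4 and 172.3 CPM in CML 1, 2, 3 and 5, and 53.8, 21.4, 0 and 40.6 CPM in CML-TKI 1 to 4. The CML libraries lay close together, all CML-TKI libraries lay below them, and CML-TKI 3 was lowest. At the CML mean, CML-TKI 3 would have held 172.8 counts of Grb10 and it held 0, at least 57.6-fold lower against the floor of that library. The mean was 189.3 ± 13.3 CPM in CML and 28.9 ± 23.4 CPM in CML-TKI (SD, n = 4 each), and Grb10 fell by 2.64 ± 0.68 (SE) on the log2 scale, a 6.54-fold difference of means (adjusted p = 0.0369, edgeR). The fall was -2.28 without CML-TKI 3, with an adjusted p of 0.00602. Without CML-TKI 2 or CML-TKI 4 the adjusted p was 0.0904 and 0.0687. The HSC, megakaryocyte and endothelial marker sums were lower, and the granulocyte and monocyte sums higher, in the same libraries, and their part in the difference was not tested. In bulk RNA, fewer cells expressing a gene and less RNA per cell cannot be told apart.

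Igf2r encodes the cation-independent mannose 6-phosphate receptor, which carries enzymes to lysosomes and removes IGF2 from the cell surface (gene ID 16004, chr17:12682406-12769706, minus strand). It had 64.4, 65.2, 81.5 and 43.9 CPM in CML 1, 2, 3 and 5, and 21.1, 13.6, 32.9 and 49.2 CPM in CML-TKI 1 to 4. The groups overlapped, since CML-TKI 4 lay above CML 5. Means were 63.8 ± 15.4 and 29.2 ± 15.5 CPM, the log2 fold change was -1.13 ± 0.39 (SE), and it did not pass the test (adjusted p = 0.101, edgeR). DESeq2 gave an adjusted p of 0.0394, limma-voom 0.0272, and edgeR without CML-TKI 4 0.0388. The antisense transcript Airn starts inside Igf2r and shares 0 exon bases with it in GENCODE vM21. Airn, which silences the paternal copy, was left out by the filter on low counts, at 1.24 to 4.44 CPM in CML and 0 in 3 of 4 CML-TKI libraries.

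Other genes of insulin and IGF signalling and of mannose 6-phosphate sorting were read from the same test. Of 12 insulin and IGF genes tested, 0 passed the threshold in edgeR, against 10.2% of all genes, among them the receptors Igf1r at -0.76 (adjusted p = 0.153, edgeR) and Insr at -0.12. At an unadjusted p under 0.05 there were 2, and 0 passed with DESeq2 and 2, Igf1r and Igf2, with limma-voom. Igf2 itself, the ligand that Igf2r clears, had 2.90 to 4.90 CPM in CML, 8.36 CPM in CML-TKI 1 and 0 in the other CML-TKI libraries. Of 8 mannose 6-phosphate sorting genes, 1 rose, against 6.29% of all genes: Sort1, the sorting receptor sortilin, by 1.11 ± 0.24 (SE) on the log2 scale (adjusted p = 0.0172, edgeR), with 158.8 to 188.6 CPM in CML and 240.5 to 455.9 CPM in CML-TKI. M6pr, the cation-dependent receptor, was at 0.39 and did not pass (adjusted p = 0.415). A median log2 fold change of -0.13 was found over the insulin and IGF genes and 0.34 over the sorting genes.

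Ndn encodes necdin, a MAGE family protein that binds E2F1 and p53 and restrains proliferation (gene ID 17984, chr7:62348277-62349928, plus strand, 1 exon). It had 31.5, 24.9, 28.6 and 34.2 CPM in CML 1, 2, 3 and 5, and 3.42, 0, 0 and 0 CPM in CML-TKI 1 to 4. The groups were far apart, and CML-TKI 1, with 18 counts, was the only treated library with any. At the CML mean, CML-TKI 2, 3 and 4 would have held 96.2, 27.2 and 114.5 counts. Against the floor of each library, Ndn was at least 32.0-fold lower in CML-TKI 2, at least 9.06-fold in CML-TKI 3 and at least 38.2-fold in CML-TKI 4. Means were 29.8 ± 3.99 CPM in CML and 0.855 ± 1.71 CPM in CML-TKI (SD, n = 4 each), and Ndn fell by 4.72 ± 1.01 (SE) on the log2 scale (adjusted p = 0.0173, edgeR). The call held without CML-TKI 2, 3 or 4 (adjusted p = 0.0278 to 0.0336). Without CML-TKI 1 the treated libraries were all at 0, and the fitted value of -10.13 (adjusted p = 2.76e-04) depends on the prior count. The 3 libraries at 0 were also those with HSC markers at 0, and the part of this in the difference was not tested.

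Peg12, a single-exon gene beside Ndn on chromosome 7, fell as well, by 3.42 ± 0.79 (SE) on the log2 scale (adjusted p = 0.0247, edgeR). It had 9.67 to 13.1 CPM in CML and 2.66, 0.310, 0 and 0.520 CPM in CML-TKI 1 to 4. Snrpn and Snurf, paternally expressed genes of the same domain, had under 1 CPM in every library. Ube3a, which encodes a ubiquitin ligase and is silenced on the paternal copy only in neurons, had 97.7 to 283.5 CPM in CML and 228.9 to 359.5 CPM in CML-TKI and did not pass (0.34, adjusted p = 0.573, edgeR). Atp10a (0.19) and the paternally expressed Mkrn3 (0.065, adjusted p = 0.981) and Snhg14 (1.05, adjusted p = 0.498) did not pass either. The 2 genes of the domain that fell were thus among 6 tested, against 3.93% of all genes called lower, and differences between the genes were not tested. Peg12 lost the call without any 1 of the CML libraries and without CML-TKI 4, and fell by 4.90 without CML-TKI 1.

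Plagl1 encodes a zinc finger transcription factor at the centre of a network of imprinted genes (gene ID 22634, chr10:13090832-13131694, plus strand). It had 1.77, 2.51, 2.51 and 2.34 CPM in CML 1, 2, 3 and 5, and 26.8, 0, 7.67 and 7.54 CPM in CML-TKI 1 to 4. 3 of the 4 CML-TKI libraries lay above every CML library and CML-TKI 2 lay below them all, so the groups overlapped. Means were 2.28 ± 0.35 and 10.5 ± 11.4 CPM, and the log2 fold change of 2.21 ± 1.05 (SE) did not pass (adjusted p = 0.219, edgeR). Without CML-TKI 2 it was 2.64 with an adjusted p of 0.0329, and without CML-TKI 1 it was 1.08 with an adjusted p of 0.500. Its relative Plag1 had 22.7 to 63.6 CPM in CML and 0 to 17.9 CPM in CML-TKI, and its difference of -2.90 did not pass (adjusted p = 0.0523). Plagl2 was at -0.0040 (adjusted p = 0.993).

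Peg3 encodes a large zinc finger protein studied in adult stem cells (gene ID 18616, chr7:6703892-6730462, minus strand). Its estimated counts were 3, 4, 10 and 3 in CML 1, 2, 3 and 5, and 563, 0, 1 and 0 in CML-TKI 1 to 4. A single library held nearly all of it, at 106.9 CPM, and the other 7 held at most 1.93 CPM. Peg3 was left out of the test by the filter on low counts, and without that filter its log2 fold change was 4.93 ± 2.01 (SE) with an adjusted p of 0.166 by edgeR. Usp29, which starts 97 bases beyond the end of the Peg3 span given above, on the opposite strand, and is also expressed from the paternal copy, had 52 counts in CML-TKI 1 and 0 in the other 7 libraries. Both genes of this shared start region were thus read in the same library.

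Of the 62 imprinted genes in the table, members included, 5 had at least 10 counts and at least 10 times the CPM of every other library in CML-TKI 1, a share of 8.06% against 3.14% of all genes. They were Peg3 and Usp29, with Mest, Peg10 and Rasgrf1, all paternally expressed. Mest, which encodes a protein of the alpha/beta hydrolase fold, had 6215 counts and 1180 CPM there and at most 1.51 CPM elsewhere. Peg10, a gene derived from a retrotransposon, had 352.3 CPM there and at most 16.6 CPM elsewhere, and Rasgrf1 had 16 counts there and 0 elsewhere. Plagl1 was 3.49 times its next highest library. Genes highest in that library alone included Moxd1, Cdh6, Gjc3, Tubb2b and Syt4. Of 10 glial and neural crest markers, a list written after the values were seen, all 10 were highest in CML-TKI 1, where they summed to 1534 CPM against 94.2 to 210.7 CPM in the other libraries, and 4 of them (Sox10, Cdh19, Fabp7 and Sox2) were at 0 in the other 7. Sox10 had 1223 counts. Stromal markers also summed highest there, to 1034 CPM, but to 932.2 CPM in CML 3 and 13.5 to 314.6 CPM in the other 6 libraries. Of these, Pdgfra had 1674 counts in CML-TKI 1 and 0 to 29 elsewhere, and Sparc 3363 counts and 0 to 401 elsewhere. Pdgfra and Sparc held most of the sum in CML-TKI 1, whereas in CML 3 most of it came from other markers of the list. The stromal markers did not move together: of 7 tested, 3 were higher and 4 lower in CML-TKI, and 0 passed. The part of the glial and stromal markers in the Peg3, Usp29, Mest, Peg10 and Rasgrf1 values was not tested. The plot of CML-TKI 1 against the other libraries shows these genes.

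**Figure D2:**
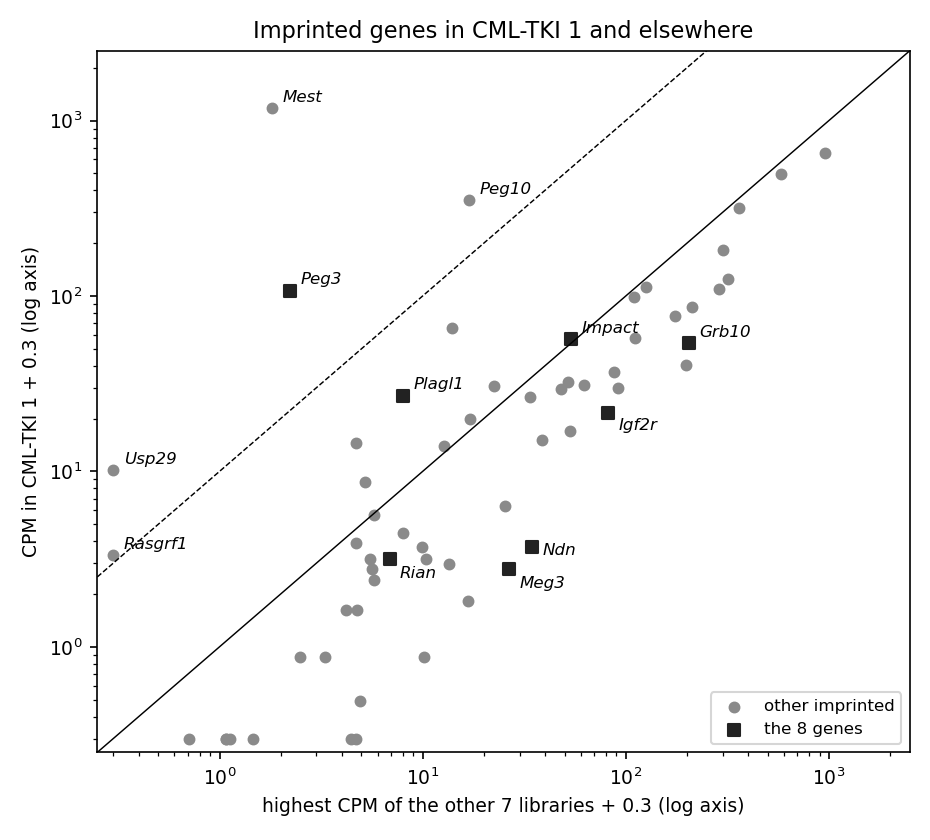
CPM of 62 imprinted genes in CML-TKI 1 (vertical, log axis) against the highest CPM among the other 7 libraries (horizontal, log axis), both with 0.3 added. The solid line marks equal values and the dashed line 10 times, and Mest, Peg10, Peg3, Usp29 and Rasgrf1 lie above the dashed line.

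Meg3 and Rian are long noncoding RNAs of the Dlk1-Dio3 domain, transcribed from the maternal copy on the same strand (Meg3, gene ID 17263, chr12:109540996-109571729; Rian, gene ID 75745, chr12:109603945-109661716). Meg3 had 5.99, 7.14, 9.08 and 2.20 CPM in CML 1, 2, 3 and 5, and 2.47, 0, 26.3 and 0 CPM in CML-TKI 1 to 4. Rian had 4.77, 5.02, 4.06 and 3.85 CPM in CML, and 2.85, 0, 6.58 and 0 CPM in CML-TKI 1 to 4. The RNAs followed the same order in the treated libraries, with CML-TKI 3 highest, CML-TKI 1 next, and CML-TKI 2 and 4 at 0. The 26.3 CPM of Meg3 in CML-TKI 3 was 24 counts, and the 6.58 CPM of Rian was 6 counts. Over the 8 libraries, log2 CPM of Meg3 and Rian had a Pearson r of 0.94, a description over libraries that share depth and group.

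The Meg3 difference was 0.039 ± 1.44 (SE) on the log2 scale (adjusted p = 0.991, edgeR), and its direction turned with the processing. It was -2.72 without CML-TKI 3 (adjusted p = 0.192) and -0.22 without CML 5. Rian was at -1.17 ± 1.18 (SE) (adjusted p = 0.584), and -2.07 without CML-TKI 3. CML-TKI 1 and CML-TKI 3 were the only treated libraries with counts of either RNA, so a fit without both compares the CML libraries with 2 libraries at 0 and its result was fixed by that choice. Against the floor of each library at 0, Meg3 was at least 6.57-fold lower in CML-TKI 2 and at least 7.82-fold in CML-TKI 4, and Rian at least 4.76-fold and 5.67-fold lower. The exons of Meg3 overlap those of an opposite-strand RNA, Gm26906, over 1228 bases, and no strand setting of the counting was stated, so those reads cannot be assigned.

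Other RNAs of the domain were low. Dlk1, the paternally expressed gene that encodes a transmembrane Notch ligand relative, had 1.55 to 4.63 CPM in CML and 0.190 CPM in CML-TKI 1 and 0 in the other CML-TKI libraries. The filter on low counts left it out of the test. Without the filter Dlk1 was at -5.12 (adjusted p = 0.0355, edgeR), and it passed without CML 3 (-5.29, adjusted p = 0.0431) and without each CML-TKI library in turn (adjusted p = 0.0185 to 0.0388), in fits whose filter kept it. These fits rest on at most 1 count in the treated libraries, so the fitted values depend on the prior count. Mirg, a further maternal noncoding RNA, had 4.38 CPM in CML-TKI 3, the library in which Meg3 and Rian were highest, and 0 in the other CML-TKI libraries. That value was 4 counts, just above the floor of 3, and in CML Mirg had 0 to 0.409 CPM. Rtl1 had 3.61 and 4.38 CPM (19 and 4 counts) in CML-TKI 1 and 3, 0 in CML-TKI 2 and 4, and 0 to 1.77 CPM in CML. In CML-TKI 3, hepatocyte and mesothelial markers, a list written after the values were seen, summed to 404.4 CPM against 1.56 to 23.2 CPM elsewhere (8 of 10 in the table, Alb at 222 counts). Erythroid markers summed to 23890 CPM there against 61.7 to 436.3 CPM elsewhere, most of it the hemoglobin gene Hba-a1 at 17906 counts. That sum does not stand for the erythroid list: of 6 tested, 3 were higher and 3 lower in CML-TKI, and 0 passed. Lymphoid markers summed to 176.5 CPM in CML-TKI 3 against 0.386 to 13.8 CPM elsewhere. The part of all these markers in the Meg3 and Rian values was not tested.

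Impact encodes an inhibitor of the GCN1 and GCN2 branch of the integrated stress response (gene ID 16210). It had 49.4, 49.6, 53.5 and 31.3 CPM in CML 1, 2, 3 and 5, and 56.6, 40.9, 29.6 and 15.6 CPM in CML-TKI 1 to 4. The groups overlapped widely and no treated library was at 0. Means were 46.0 ± 9.94 and 35.7 ± 17.4 CPM, and the log2 fold change was -0.36 ± 0.38 (SE, adjusted p = 0.606, edgeR). In all 20 alternative settings Impact did not pass. Osbpl1a, an oxysterol-binding protein gene next to Impact, fell by 1.68 ± 0.29 on the log2 scale (adjusted p = 0.00655), from 57.1 to 91.0 CPM in CML to 16.4 to 29.6 CPM in CML-TKI, without overlap. Of 17 tested partners and family members of Ndn, Peg3, Plagl1 and Impact, 1 rose, a share near the 6.29% of all genes: Cdkn1a, the p53 target p21, by 3.27 ± 0.63 (SE) (adjusted p = 0.011, edgeR), with 1.63 to 3.67 CPM in CML and 8.77 to 46.7 CPM in CML-TKI. GCN2 (Eif2ak4, -0.51), Gcn1 (-0.32) and Atf4 (0.13) did not pass.

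Per kilobase of annotated exon, where levels of genes can be set side by side, Grb10 was the highest member in CML at 20.8 ± 1.47 CPM per kb (SD, n = 4). Impact at 8.96 ± 1.94, Ndn at 8.07 ± 1.08 and Igf2r at 6.85 ± 1.66 followed, and neighbours among these overlapped. Meg3 at 0.337 ± 0.160, Plagl1 at 0.292 ± 0.0449 and Rian at 0.243 ± 0.0306 were lower and overlapped each other, and Peg3 at 0.0661 ± 0.0541 had the lowest mean. Gaps without overlap lay between Grb10 and Impact and between Igf2r and Meg3. Peg3 lay below Plagl1 and Rian without overlap, but its highest library, at 0.145, was above the lowest of Meg3, at 0.122. Exon lengths came from GENCODE vM21, while the authors counted RefSeq transcripts. For Ndn, whose RefSeq length is 1652 bases against 3694 in GENCODE, the RefSeq length gave 18.04 ± 2.42 CPM per kb, with a range of 15.1 to 20.7 that overlaps Grb10, whose lowest library was at 18.95. RefSeq lengths were used for Ndn alone, so its place in the order was not settled. In CML-TKI the order by mean was Impact at 6.96 ± 3.39, Grb10 at 3.18 ± 2.58, Igf2r at 3.14 ± 1.66, Peg3 at 2.03 ± 4.00, Plagl1 at 1.34 ± 1.46, Meg3 at 0.398 ± 0.707, Ndn at 0.231 ± 0.463 and Rian at 0.129 ± 0.171 CPM per kb. The RefSeq length gave Ndn 0.517 ± 1.03 in CML-TKI, above the mean of Meg3. Every pair of neighbours in this order overlapped.

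Imprinted genes outside the 8 were read from lists of cluster neighbours and of other domains, 66 genes of which 54 were in the table and 35 were tested. Not all of them are imprinted in every tissue. 1 rose and 6 fell, against 6.29% and 3.93% of all genes tested. Their median log2 fold change was -0.62, and -1.09 without CML-TKI 1, where 17 passed. Gatm, which encodes the first enzyme of creatine synthesis, rose by 2.34 ± 0.33 (SE) on the log2 scale (adjusted p = 0.00272, edgeR), with 31.9 to 42.5 CPM in CML and 124.2 to 318.3 CPM in CML-TKI. Cdkn1c, which encodes the cell cycle inhibitor p57 and is known from quiescent HSCs, fell by 4.41 ± 1.04 (adjusted p = 0.0269), from 7.91 to 16.5 CPM in CML to 1.52 CPM in CML-TKI 1 and 0 in CML-TKI 2 to 4. Among the treated libraries, Cdkn1c thus had counts in CML-TKI 1 alone, as did Ndn, Airn, Phlda2 and Igf2 among others. CML-TKI 1 had the largest total of the treated libraries, 5104268 counts. Cdkn1c lost the call without any 1 of the 4 CML libraries and kept it without each CML-TKI library, where the fitted value without CML-TKI 1 (-8.73) rests on libraries at 0.

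The other 3 genes that fell, beside Cdkn1c, Peg12 and Osbpl1a, were Peg13, Cd81 and Htr2a, and none overlapped between groups. Peg13, a noncoding RNA within Trappc9, fell by 1.77 (adjusted p = 0.0164, edgeR), Cd81, a tetraspanin gene, by 1.54 (adjusted p = 0.0176), and Htr2a, a serotonin receptor gene, by 2.54 (adjusted p = 0.0302). With 1 library left out, Gatm and Osbpl1a kept the call in all 8 fits. Peg13 lost it without CML 1, Cd81 without CML 1 or CML 5, and Htr2a without any 1 of the CML libraries and without CML-TKI 2. Igf2r's neighbour Slc22a3, an organic cation transporter gene, had 177.8 to 198.2 CPM in CML and 0 to 70.1 CPM in CML-TKI, without overlap, and its difference of -2.25 did not pass (adjusted p = 0.136, edgeR). Without CML-TKI 2, the library at 0, it was -1.82 with an adjusted p of 0.00474. Kcnq1ot1, a noncoding RNA of the Cdkn1c domain, did not pass, at 216 to 952.3 CPM in CML and 556.8 to 778.6 CPM in CML-TKI (-0.01, adjusted p = 0.991). Of 12 genes that keep imprints through cell division, 0 passed in edgeR, against 10.2% of all genes, among them Trim28 at -0.61 (adjusted p = 0.111), Zfp57 at 0.32 (adjusted p = 0.907), Zfp445 at 0.30 and Dnmt1 at 0.20. At an unadjusted p under 0.05 there were 2, and DESeq2 and limma-voom each called Trim28 alone. A p that misses the threshold does not show that these genes were the same in both groups. The plots of fold changes and of log2 CPM give all 42 imprinted genes tested.

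**Figure D3:**
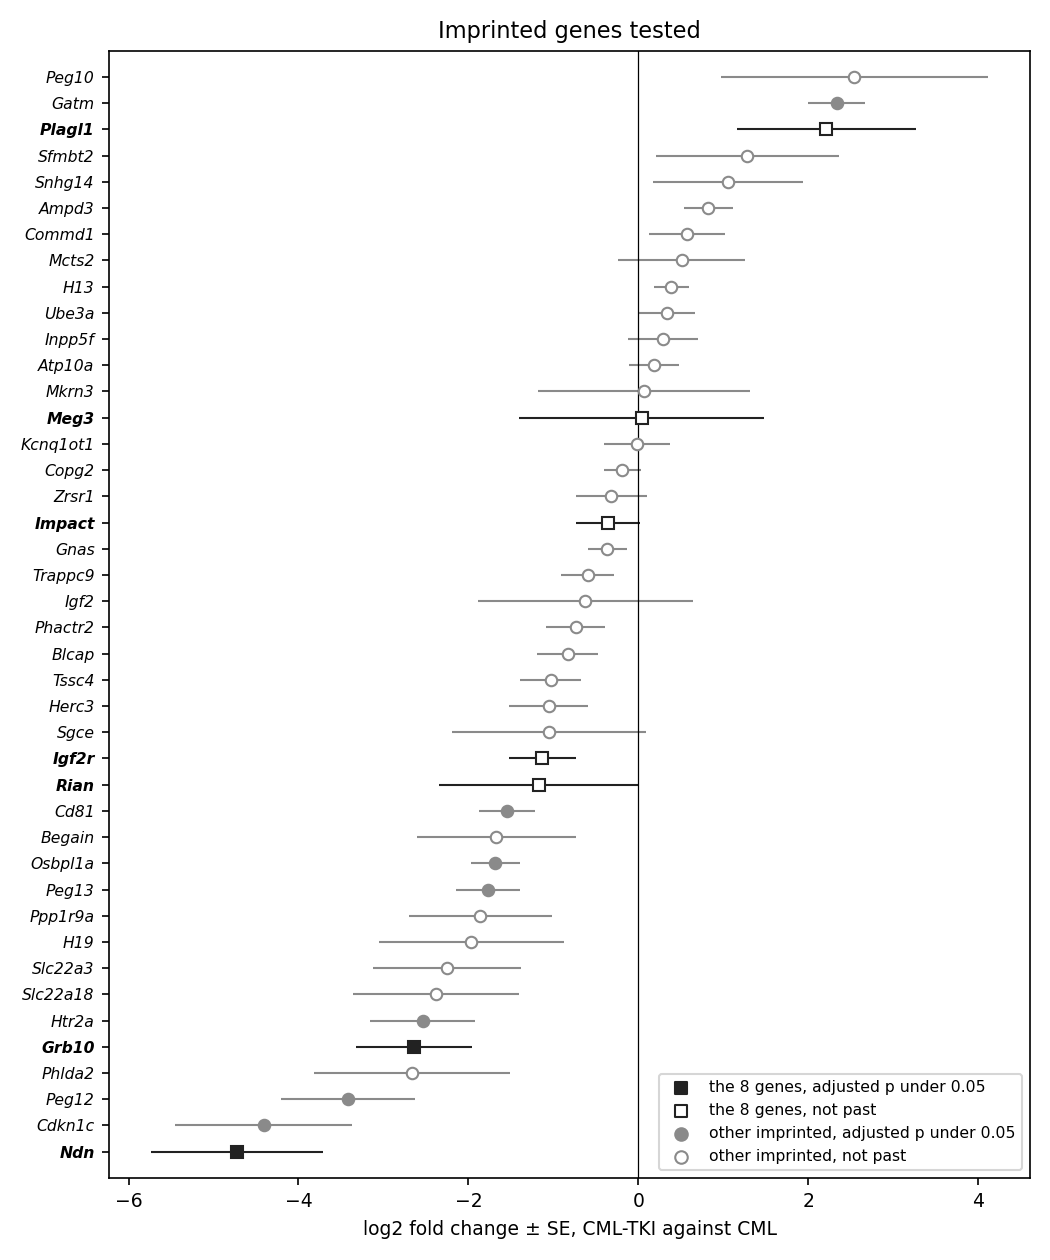
Log2 fold change with its SE of the 42 imprinted genes tested, CML-TKI against CML (4 libraries each). Squares in bold type are 7 of the 8 genes and circles the other imprinted genes, filled where the adjusted p was under 0.05: Gatm on the higher side, and Ndn, Cdkn1c, Peg12, Grb10, Htr2a, Peg13, Osbpl1a and Cd81 on the lower side.

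**Figure D4:**
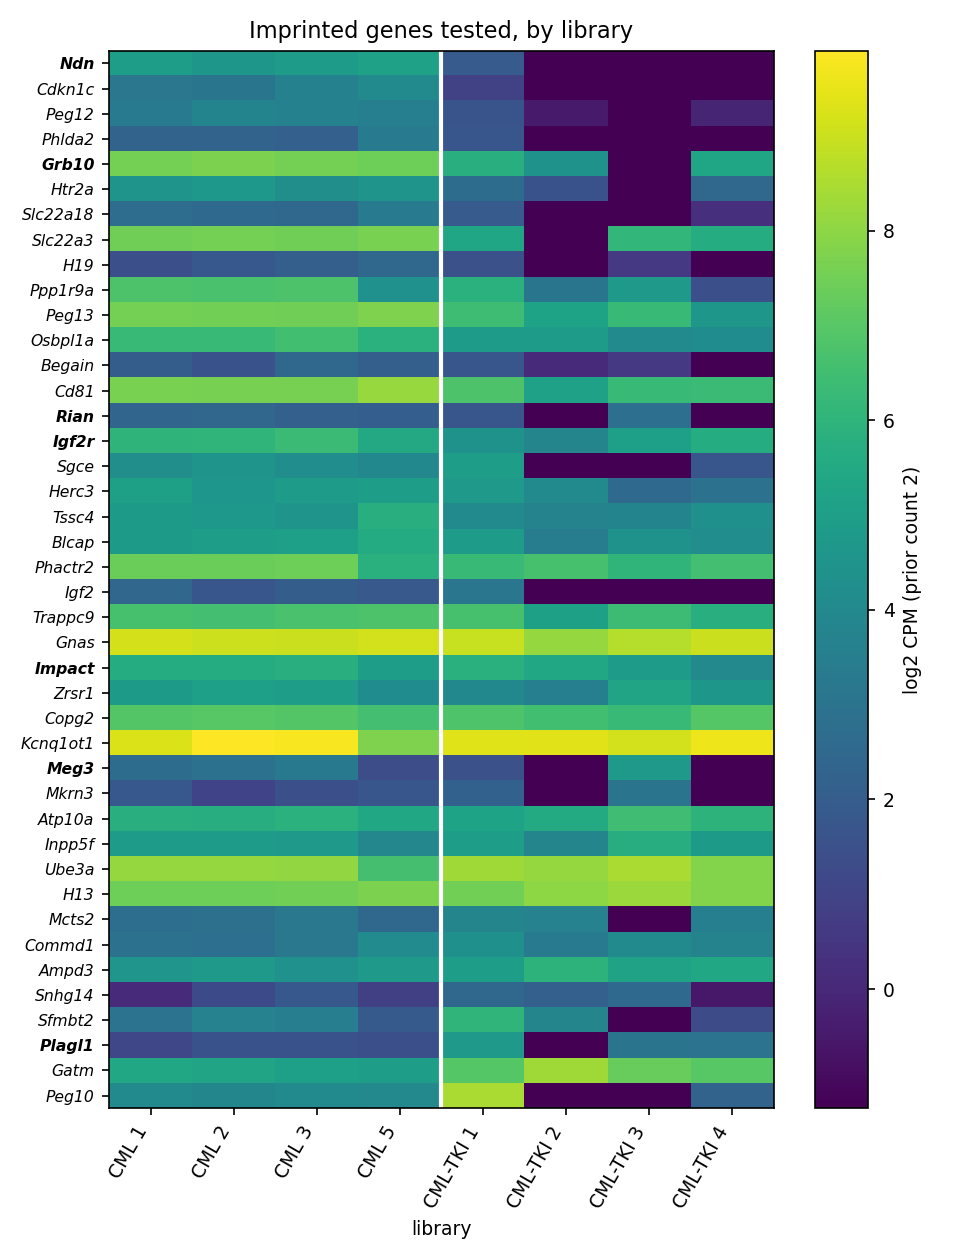
Log2 CPM (prior count 2, colour) of the same 42 genes (vertical, ordered by log2 fold change) in each library (horizontal), with a white line between groups. The darkest cells, libraries at 0 counts, lie in CML-TKI 2, 3 and 4, and Peg10 stands out in CML-TKI 1.

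The genes most like each member were taken as those with the highest Pearson r of log2 CPM over the 8 libraries, among 9314 genes whose mean log2 CPM was 3 or more. The libraries share group and depth, so the values describe pattern only. For Ndn they were Zfp395 (0.99), Fchsd1 (0.99) and Hlf (0.99), the last a transcription factor gene and HSC marker that fell by 3.64 (adjusted p = 0.0303, edgeR). For Grb10 they were Ppp1r13b (0.996), Car13 (0.99) and Lrfn1 (0.99), and for Igf2r Stat4 (0.99), Cpped1 (0.98) and Rbm43 (0.98). For Plagl1, Lmtk2, Pde4dip and Mtmr10 reached 0.94, 0.94 and 0.94. For Meg3, Exd2, Rbbp9 and Supt5 reached 0.98, 0.96 and 0.96, and for Rian, Inpp5a, 2310015A10Rik and Arhgap29 reached 0.99 each. For Impact, Rrm2b, Smarce1 and Gphn reached 0.96 each. Among the members themselves, r was 0.77 for Grb10 with Ndn, 0.65 for Igf2r with Ndn and -0.20 for Grb10 with Plagl1.

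The plot of fold changes by setting shows how firmly each member's value was held. Grb10 kept its direction in all 20 alternatives, from -3.40 to -2.28, and passed in 9 of them. Ndn kept its direction in all 20 and passed in 13. Igf2r was lower in all 20 and passed in 3. Plagl1 was higher in 19 of 19 and passed in 1. Rian was lower in 19 of 19 and passed only with CML-TKI 1 and 3 left out, where the treated libraries were at 0, and Meg3 changed sign in 6 of 19.

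**Figure D5:**
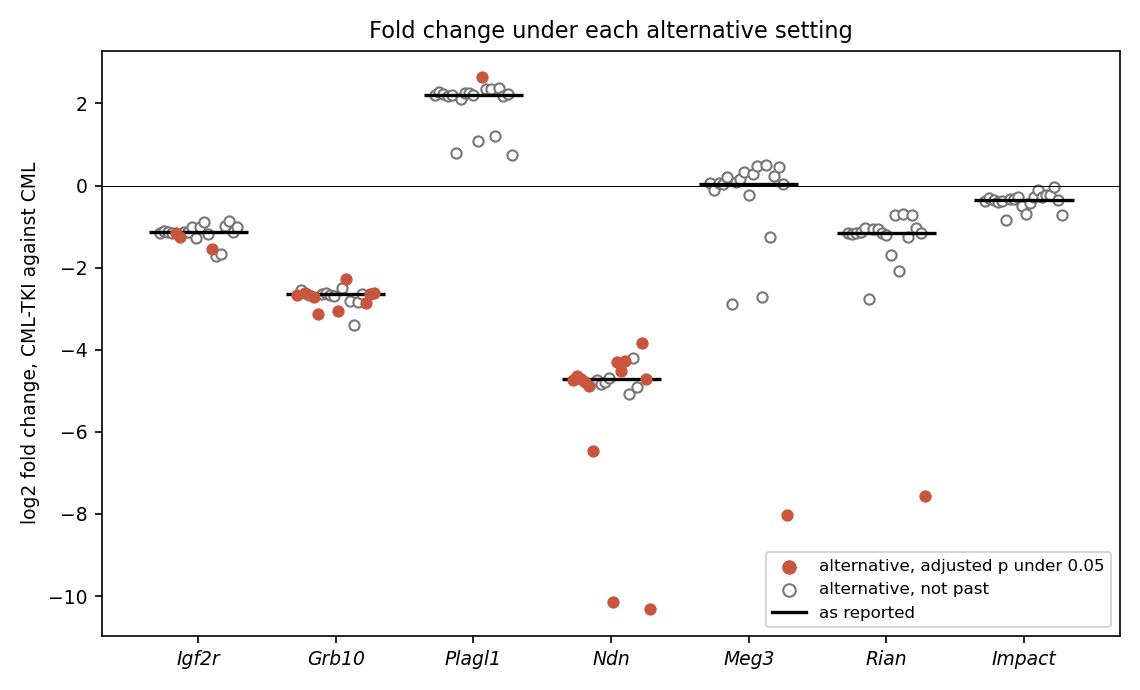
Log2 fold change, CML-TKI against CML, of each tested member under each alternative setting (points, filled where the adjusted p was under 0.05) and as reported (bar). Grb10 and Ndn lie below 0 throughout, and Meg3 crosses 0. For fits in which all treated libraries of a gene were at 0, such as Ndn near -10, the fitted value depends on the prior count.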

How the data were processed

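Bulk RNA-seq of 4 CML and 4 CML-TKI libraries was analysed. The authors isolated total RNA, prepared it with Nextera XT, mapped read pairs to mm10 (STAR 2.6.1d) and counted RefSeq transcripts (Partek 8.0, versions from the submitters' processing notes). What they deposited are estimated counts per gene, not normalized. These were rounded, 11937 genes passed filterByExpr (minimum count 10, total 15), and edgeR 4.0.16 in R 4.3.3 (TMM, robust quasi-likelihood test, Benjamini-Hochberg, threshold 0.05) gave the tests. An SE is the log2 fold change over the square root of F. CPM are TMM-normalized and log2 CPM use a prior count of 2. The script was tested on simulated data.

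The members and lists were chosen with earlier results of these data known, and the glial and hepatocyte lists after values were seen. Named genes were all members, genes of each list past the threshold by adjusted p (at most 8, or 10 for imprinted lists), 3 genes most like each member, Slamf1 and Cd48. Further genes were picked with their values known. RefSeq tables of GRCm38.p6 and GENCODE vM21 gave positions. Alternatives (DESeq2 1.42.0, limma 3.58.1, normalization, filter, libraries) are in the closing section. ChIP-seq and K562 data were not analysed here. Reads carried no molecular identifiers and are not independent molecules, which floors do not cover.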

Additional observations from a re-analysis of the deposited data

Results flagged for a closer look

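In 36 groups of 4 libraries examined (members and the imprinted genes named), 9 held a library whose gap to the rest exceeded the critical value of Dixon's test at 95%, where chance gives about 1 in 20 groups, or 1.8. 7 of the 9 were CML-TKI 1, the highest of the CML-TKI libraries: Ndn at 3.42 CPM, Peg3 at 106.9, Usp29 at 9.88, Cdkn1c at 1.52, Mest at 1180, Peg10 at 352.3 and Rasgrf1 at 3.04 CPM. Mest, Peg10, Usp29 and Rasgrf1 were named for their level in CML-TKI 1, so the chance rate does not apply to them. Without these genes, 5 of 30 groups stood apart, 3 of them in CML-TKI 1, where chance gives 1.5. In groups whose other libraries are all at 0, as for Ndn, Usp29, Cdkn1c and Rasgrf1, any library with counts stands apart by this measure. Meg3 at 26.3 CPM in CML-TKI 3 and Cd81 at 288.3 CPM in CML 5 were the other 2, each the highest of its group.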

How the results depend on the processing

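Of the 11937 genes tested, 1220 passed as reported, 2157 with DESeq2, 2563 with limma-voom, 122 with CML 1 to 3 summed to 1 library and 505 to 2504 with 1 library left out (505, 552 and 570 without CML 1, 2 and 3, and 2504 without CML-TKI 1). With CML-TKI 1 and 3 left out together, chosen after seeing the data, 3262 passed. Of the 8 genes, 2 passed as reported, 1 with total counts as library sizes, 1 without the filter on low counts, 0 with CML 1 to 3 summed, 4 with CML-TKI 1 and 3 left out (Meg3 and Rian among them, both then at 0 in the treated libraries) and 0 to 2 with 1 library left out, with 0 without CML 1, 2, 3 or 5. Of the other imprinted genes, 7 passed as reported, 15 with limma-voom, 0 with CML 1 to 3 summed, 21 with CML-TKI 1 and 3 left out and 2 to 17 with 1 library left out (2 without CML 1, 4 without CML 2 or CML 5, and 17 without CML-TKI 1).

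The shared numbers 1 to 3 do not pair the libraries by the sources used here, and deviations of same-numbered libraries had correlations of -0.042, 0.097 and 0.093. A replicate block over these libraries gave 193 genes, 0 of the 8 and 0 of the other imprinted genes, and the same libraries without the block 589, 0 and 3. Meg3 reversed to -0.11 with total counts, -2.87 with limma-voom, -2.72 to 0.49 with 1 library left out (-0.22 without CML 5, -2.72 without CML-TKI 3), -1.26 with the replicate block and -8.03 with CML-TKI 1 and 3 left out, where the treated libraries were at 0. The cause was not tested. Depth limits Meg3, Rian and Plagl1: thinned to the smallest total they were too low to test, and Peg3 had a value only without the filter. Median log2 fold changes of all genes shifted by over 0.1 only with limma-voom (-0.11) and the block (-0.13).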
